A study of Mus musculus with 12 samples.

Results

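Genes that B lymphocytes use were measured in subcutaneous white adipose tissue (scWAT) and brown adipose tissue (BAT) of wild-type (WT) and Lr11 -/- mice. The 8 genes, of 20660 named on the array, were chosen by name with earlier results of these data known. These are Ms4a1, Cd79a, Cd79b, Cr2, Fcer2a, Pax5, Blk and Cd22. They are read by 10 probes, since Cr2 and Pax5 have 2 probes each. The 12 single-colour arrays hold 3 samples in each of 4 groups, which are scWAT of WT and of Lr11 -/- mice and BAT of the same genotypes. All mice were male, 12 weeks old and on a C57Bl6/J background, and both genotypes were fed a high-fat diet (HFD) with 60% of its calories from fat. The sample descriptions give 4 weeks of this diet, whereas the treatment notes have it begin at weaning. Lr11 -/- mice lack LR11, a sorting receptor encoded by Sorl1, in every tissue, and the controls were WT littermates. The labels do not say which scWAT and BAT samples came from the same mouse. They do not name the animal behind an array either, so the p-values measure the spread between these samples.

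B lymphocytes are the antibody-forming lineage. Each carries a B cell receptor, a surface immunoglobulin that signals through CD79A and CD79B, and coreceptors such as CD21 (Cr2) and CD22 raise or lower that signal. PAX5 holds cells in the lineage, and BLK is a kinase of the receptor pathway. In fat, B lymphocytes lie among the adipocytes, in small lymphoid clusters and in the lymph node embedded in the inguinal pad. In a piece of whole tissue, fewer B lymphocytes and less RNA of these genes in each cell cannot be told apart.

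Levels are log2 signals minus the array's own 75th percentile of the signal, so that 0 is the brightness below which 75% of the spots lie. They can be compared between arrays for a probe and not between probes. A probe was tested where 1 or more of the groups had all 3 arrays called well above background by the scanner software. Of the 8 genes 5 had such a probe, namely Ms4a1, Cd79b, Cr2 (both probes), Fcer2a and Cd22. Ms4a1 passed through the WT groups, in which all 6 arrays were well above background against 3 of 6 Lr11 -/- arrays, and the other 4 genes were well above background on all 12 arrays. Cd79a was so on 2 arrays, both WT scWAT, Pax5 on 5 with its brighter probe and on 0 with the other, and Blk on 0, so these 3 were not tested.

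Sorl1 was between 0.11 and 1.21 on the WT arrays and between -3.93 and -2.45 on the Lr11 -/- arrays, as the genotype labels say. Some libraries stood apart in other genes. Skeletal muscle genes averaged between 5.34 and 8.31 on 5 arrays (WT scWAT replicate 3, Lr11 -/- scWAT replicate 1, WT BAT replicates 1 and 3, and Lr11 -/- BAT replicate 1) and between -3.67 and -2.62 on the other 7. Genes shared by all leucocytes were highest on WT scWAT replicate 2, where their mean was 3.42, against 0.27 and 1.55 on the other WT scWAT arrays. The brown adipocyte gene Ucp1 was at -4.63, -4.52 and 2.92 in WT scWAT, at 4.39, 9.75 and 10.05 in Lr11 -/- scWAT and between 9.45 and 10.07 in BAT. Their part in the results below was not tested, and values without these arrays are given beside the results they move.

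**Figure D1:**
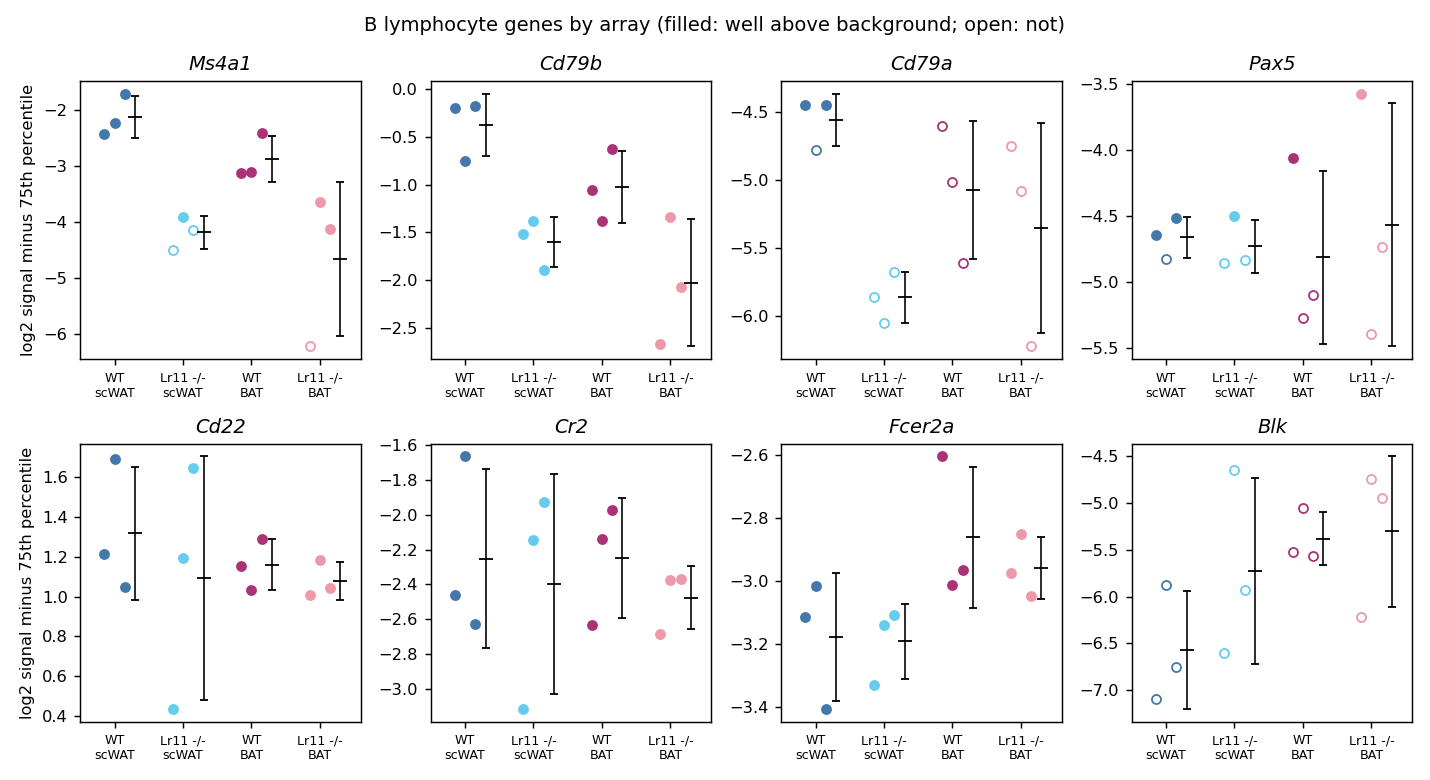
Log2 signal minus the array's 75th percentile (y axis) of the 8 B lymphocyte genes on the 12 arrays by group (x axis), read from the brighter probe of each gene, with filled points well above background, open points not, and the mean ± SD of the 3 arrays beside them in black. Ms4a1, Cd79b and Cd79a have every Lr11 -/- scWAT array below every WT scWAT array, whereas Cd22, Cr2 and Fcer2a overlap.

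Cd79b and Ms4a1 had lower means in Lr11 -/- fat of both depots, with group means 2.33- and 4.18-fold lower in scWAT, and the dim, untested Cd79a had a lower mean in scWAT. No member passed the adjusted threshold in either depot. In scWAT the limma adjusted p was 0.0555 for Ms4a1 and 0.0625 for Cd79b, and 0.103 and 0.117 with all probes kept in the fit. Cd22, Cr2 and Fcer2a overlapped between genotypes in both depots with their brighter probes, and Pax5 and Blk were too dim to be tested.

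Ms4a1 encodes CD20, a membrane protein carried by B lymphocytes from the pre-B stage until they become plasma cells. Its level was -2.42, -2.23 and -1.70 in WT scWAT against -4.49, -3.90 and -4.15 in Lr11 -/- scWAT. The BAT levels were -3.12, -3.10 and -2.41 in WT and -6.23, -3.65 and -4.12 in Lr11 -/- mice. Every Lr11 -/- array thus lay below every WT array of its depot, and the dimmest value was that of Lr11 -/- BAT replicate 1, an array with muscle RNA. The log2 difference was -2.06 (SE 0.56, n = 3 per group) in scWAT, a 4.18-fold lower signal, with a limma adjusted p of 0.0555. Only 1 of the 3 Lr11 -/- scWAT arrays was well above background. In BAT the log2 difference was -1.79 (SE 0.56), with an unadjusted limma p of 0.00854 and an adjusted p of 1, and 2 of the 3 Lr11 -/- arrays were well above background. Raising the dim array of that group to its floor, the dimmest signal still called above background on that array, gave a 2.21-fold difference. Leaving that array out gave a log2 difference of -1.01. The floor is not a strict detection limit, since Ms4a1 at -4.49 on Lr11 -/- scWAT replicate 1 (floor -4.67) was not called. Background correction of the median signals by normexp, with an offset of 50 added and quantile normalization after it, gave -0.85 in scWAT and -0.61 in BAT.

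The scWAT difference of Ms4a1 was -2.07 in the first array series and -2.06 in the second. It passed the threshold with the array series as a block (adjusted p = 0.0421), with the slide as a block (0.0438), in the second series alone (0.0123), after normexp (0.0298), without WT scWAT replicate 1 (0.0492) and without Lr11 -/- BAT replicate 1 (0.0292). Without the 5 arrays with muscle RNA, a fit with only 1 WT BAT array, the log2 difference in scWAT was -1.70. The same probe did not pass in the other alternatives with more than 1 array in every group, in which the adjusted limma p reached 0.315. In scWAT 1692 tested probes passed in the main fit, 7259 in the second series alone and 4409 without WT scWAT replicate 1. The count was 1294 with the series and 911 with the slide as a block, 1378 after normexp, and 158 without Lr11 -/- BAT replicate 1. In BAT Ms4a1 did not pass in any alternative run, and without the muscle arrays, which left 1 WT BAT array, its log2 difference was -0.78.

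Cd79b encodes the Ig-beta chain through which the B cell receptor signals. It was at -0.20, -0.75 and -0.18 in WT scWAT against -1.52, -1.38 and -1.89 in Lr11 -/- scWAT. The groups did not overlap, and all arrays were well above background. The BAT levels were -1.06, -1.38 and -0.63 in WT and -2.66, -1.34 and -2.07 in Lr11 -/- mice, where Lr11 -/- replicate 2 lay within the WT range. The log2 difference was -1.22 (SE 0.34, n = 3 per group) in scWAT with a limma adjusted p of 0.0625, and -1.003 (SE 0.34) in BAT with an unadjusted p of 0.0147 and an adjusted p of 1. Without Lr11 -/- BAT replicate 1 the BAT difference was -0.68, and without the 5 muscle arrays it was -0.33, against -1.16 in scWAT.

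Cd79a encodes Ig-alpha, the partner chain of CD79B. It was dim, at -4.45, -4.78 and -4.44 in WT scWAT against -5.86, -6.05 and -5.68 in Lr11 -/- scWAT. These groups did not overlap (two-sided exact permutation p = 0.1, the smallest that 3 arrays against 3 can give). With the Lr11 -/- arrays raised to the floor the difference was 1.01-fold, against a measured log2 difference of -1.31. With all probes kept in the fit its limma adjusted p was 0.121. The BAT levels were -4.60, -5.01 and -5.61 in WT and -4.75, -5.08 and -6.22 in Lr11 -/- mice, so that the genotypes overlapped and no array was well above background.

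Cd22 encodes a lectin that dampens receptor signals. Its level was 1.21, 1.69 and 1.05 in WT scWAT, 0.44, 1.19 and 1.65 in Lr11 -/- scWAT, 1.15, 1.03 and 1.29 in WT BAT and 1.01, 1.18 and 1.04 in Lr11 -/- BAT. The groups overlapped in both depots, with log2 differences of -0.23 (SE 0.30) in scWAT and -0.08 (SE 0.30) in BAT.

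Cr2 encodes CD21, the complement receptor of mature B lymphocytes and follicular dendritic cells. With its brighter probe it ranged from -2.63 to -1.66 in WT scWAT, from -3.12 to -1.93 in Lr11 -/- scWAT, from -2.64 to -1.97 in WT BAT and from -2.69 to -2.37 in Lr11 -/- BAT. The log2 differences were -0.15 (SE 0.36) and -0.23 (SE 0.36), and the ranges overlapped. The dimmer probe gave -0.27 (SE 0.24) in scWAT and -0.32 (SE 0.24) in BAT, and there its Lr11 -/- arrays all lay below the WT arrays (two-sided exact permutation p = 0.1). The Cr2 probes therefore differed in whether the genotypes overlapped in BAT.

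Fcer2a encodes CD23, the low-affinity receptor for IgE. It ranged from -3.41 to -3.02 in WT scWAT and from -3.33 to -3.11 in Lr11 -/- scWAT, a log2 difference of -0.01 (SE 0.20). Its BAT levels lay between -3.01 and -2.60 in WT mice and between -3.05 and -2.85 in Lr11 -/- mice, a log2 difference of -0.10 (SE 0.20). Of the untested members, Pax5 lay between -5.39 and -3.57 and Blk between -7.09 and -4.64 over all arrays, with the genotypes overlapping in both depots. The mean of Blk, which was above background on no array, was higher in Lr11 -/- scWAT by 0.85 on the log2 scale.

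Of the 5 tested genes 0 passed the limma threshold in scWAT, where 5.27% of the 32121 tested probes did, and 0 passed in BAT, where 0.0187% did. At an unadjusted p under 0.05 the count was 2 of 5 in each depot, Ms4a1 and Cd79b both times, where 27.6% of all tested probes had such a p in scWAT and 2.12% in BAT. Ms4a1 was among the tested genes only because of its level in the WT groups, and the members were chosen with earlier results known. These counts and those of arrays without overlap are therefore given as a description. The median log2 difference over the tested members was -0.23 in scWAT and -0.23 in BAT, against 0.04 and 0.04 over all tested probes. Among the tested members, 2 of 5 had every Lr11 -/- array below every WT array in scWAT and 1 of 5 in BAT, where 8.75% and 4.65% of all tested probes did, and 1, Ms4a1, had this in both depots, against 0.847%. The mean of both depots' genotype differences, a contrast added after the values were seen, was -1.93 (SE 0.39, adjusted p = 0.102) for Ms4a1 and -1.11 (SE 0.24, adjusted p = 0.116) for Cd79b. Here 0 of 5 passed, against 0.121% of all probes. Without Lr11 -/- scWAT replicate 1, an array with muscle and epithelial RNA, both passed (adjusted p = 0.0271 and 0.0283). Ms4a1 also passed without WT scWAT replicate 3 (adjusted p = 0.0466). In these fits 3528 and 1338 of all tested probes passed, against 39 in the main fit.

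Whether the genotype difference itself differed between the depots was tested by the interaction. No member passed (0 of 5, and 0 of 5 at an unadjusted p under 0.05), where 0% of all probes passed and 11% had an unadjusted p under 0.05. For Ms4a1 the scWAT difference minus that in BAT was -0.27 (SE 0.79, limma adjusted p = 0.917), and for Cd79b it was -0.22 (SE 0.49, adjusted p = 0.890). These errors are wide against the genotype differences, so the depots could not be told apart here.

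**Figure D2:**
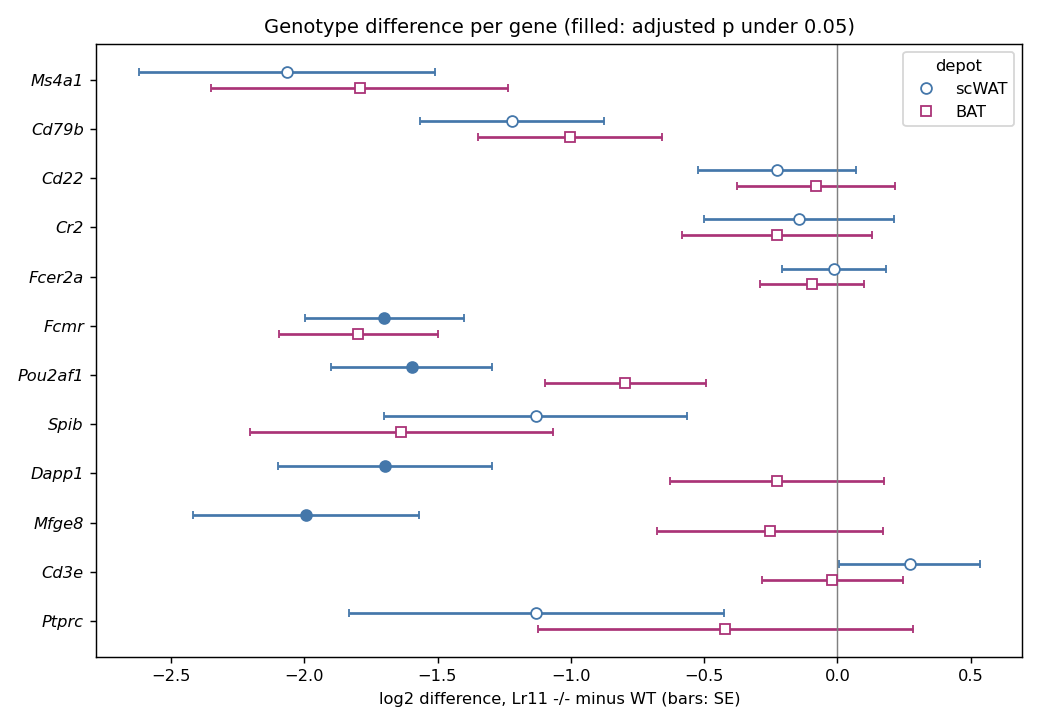
Log2 difference, Lr11 -/- minus WT (x axis), of the 5 tested B lymphocyte genes and 7 other genes (y axis) in scWAT (circles) and BAT (squares), with SE bars from the limma fit of all 12 arrays and filled symbols past the adjusted threshold. The symbols of Fcmr, Pou2af1, Dapp1 and Mfge8 are filled in scWAT, and those of Ms4a1 and Cd79b are open at -2.06 and -1.22.

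Between depots no member passed in either genotype (0 of 5 for BAT minus scWAT in WT, where 24.8% of all probes passed, and 0 of 5 in Lr11 -/-, where 0.0405% did, and 0 of 5 at an unadjusted p under 0.05 in each, against 40.1% and 9% of all probes). In WT mice Ms4a1 was lower in BAT by a log2 difference of -0.76 (SE 0.56) and Cd79b by -0.64 (SE 0.34), with overlapping arrays. The group mean of Ms4a1 was highest in WT scWAT (-2.12 ± 0.37, SD), followed by WT BAT (-2.87 ± 0.41), then by scWAT (-4.18 ± 0.30) and BAT (-4.67 ± 1.37) of Lr11 -/- mice, and Cd79b had the same order. For both genes the WT groups overlapped with each other, as did the Lr11 -/- groups with each other. Fcer2a was higher on every BAT array than on every scWAT array in both genotypes, by a log2 difference of 0.32 (SE 0.20) in WT and 0.23 (SE 0.20) in Lr11 -/- mice (two-sided exact permutation p = 0.1 each), but without scaling of the arrays the WT difference was -4e-04. The lowest WT BAT array was at -3.013 and the highest WT scWAT array at -3.016. The share of all tested probes without overlap between depots was not counted.

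The members did not all vary together. Over the 12 arrays Ms4a1 and Cd79b had a Pearson r of 0.935 (Spearman rho 0.923), and r was 0.869 without WT scWAT replicate 3 and Lr11 -/- BAT replicate 1, the arrays farthest from the median of Cd79b. Cr2 and Cd22 formed another pair, with r 0.878 (rho 0.748) and r 0.665 without WT scWAT replicate 2 and Lr11 -/- scWAT replicate 1. Ms4a1 with Cd22 had an r of 0.342 and with Fcer2a an r of -0.0983. These values describe the same 12 arrays, which share their scaling and tissue makeup, and they were not tested.

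**Figure D3:**
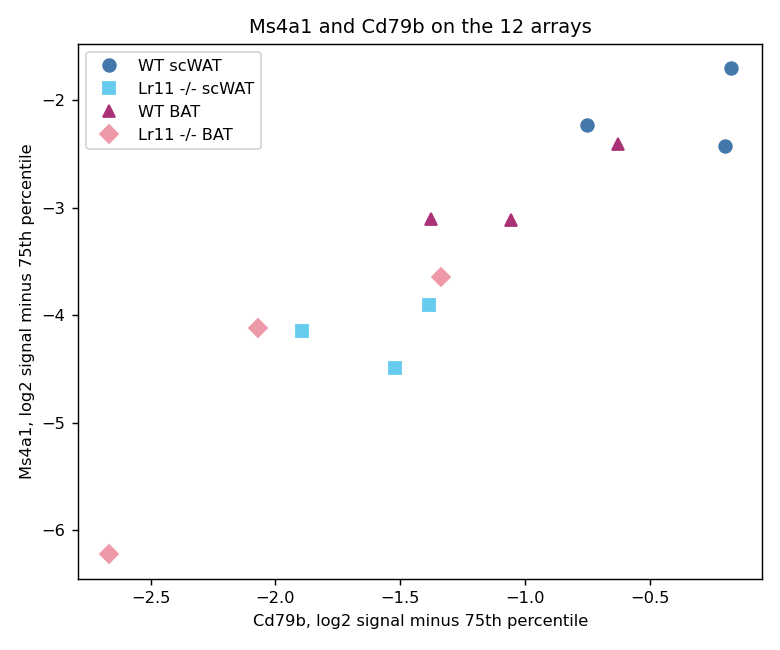
Ms4a1 (y axis) against Cd79b (x axis), both as log2 signal minus the 75th percentile, for the 12 arrays with a symbol for each group. Every Lr11 -/- array lies below every WT array in Ms4a1. In Cd79b the genotypes overlap, with Lr11 -/- BAT replicate 2 at -1.34 and WT BAT replicate 2 at -1.38. Lr11 -/- BAT replicate 1 is lowest in both genes (-6.23 and -2.66).

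Other genes of the B lineage were read from a list of 20, of which 16 were tested. 1 passed in scWAT, where it was lower, and 0 passed in BAT, against 5.27% and 0.0187% of all tested probes. The 1 gene was Fcmr, the receptor for IgM on B lymphocytes. It was at -2.52, -3.30 and -3.16 in WT scWAT against -4.99, -4.55 and -4.53 in Lr11 -/- scWAT. The BAT levels were -2.50, -2.86 and -2.33 in WT and -4.55, -3.84 and -4.69 in Lr11 -/- mice. The genotypes did not overlap in either depot, and of the Lr11 -/- arrays 0 of 3 in scWAT and 1 of 3 in BAT were well above background. Fcmr entered the test only through the WT groups, so its selection was not independent of the difference. In scWAT its log2 difference was -1.70 (SE 0.30, limma adjusted p = 0.0286), and it was 2.93-fold lower with dim arrays raised to the floor. With all probes kept the adjusted p was 0.0585. In BAT the log2 difference was -1.80 (SE 0.30, adjusted p = 0.254), and as the mean of both depots -1.75 (SE 0.21, adjusted p = 0.0150). The scWAT call held in 6 of 12 fits that each left out 1 array. It was lost without Lr11 -/- scWAT replicate 2 or 3, any WT BAT array or Lr11 -/- BAT replicate 1, with adjusted p up to 0.112, and without the 5 muscle arrays (0.0674). The call on both depots was lost without Lr11 -/- scWAT replicate 2 or 3, WT BAT replicate 1 or 3, or Lr11 -/- BAT replicate 1 or 3, with adjusted p up to 0.0760, as well as after normexp (0.0881) and without the 5 muscle arrays, where the log2 difference was -1.52 (0.145).

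Cxcr5, the receptor that leads B lymphocytes into follicles, was looked at after its values were seen and was not tested. In scWAT it was at -4.40, -4.54 and -3.63 in WT against -6.35, -6.87 and -6.63 in Lr11 -/- mice, and the genotypes did not overlap. With the Lr11 -/- arrays raised to the floor it was 1.30-fold lower. Over the 16 tested genes of this list the median log2 difference was -0.60 in scWAT and -0.32 in BAT, and 12 and 14 of them lay below 0. The median over all tested probes was 0.04 in each depot.

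Of 14 transcription factors of the lineage 13 were tested, and 1 passed in scWAT, against 5.27% of all tested probes. This was Pou2af1, a coactivator that works with octamer-binding factors in B lymphocytes. It was at -3.10, -2.91 and -2.10 in WT scWAT against -4.15, -4.25 and -4.50 in Lr11 -/- scWAT. It was at -3.52, -3.54 and -3.83 in WT BAT and at -4.94, -4.12 and -4.22 in Lr11 -/- BAT. No arrays overlapped between genotypes in either depot. Pou2af1 too was tested only through the WT groups, with 2 of 3 arrays above background in each Lr11 -/- group. Its log2 difference was -1.60 (SE 0.30, adjusted p = 0.0327) in scWAT, where the adjusted p was 0.0634 with all probes kept, and -0.80 (SE 0.30, adjusted p = 1) in BAT. Over the 13 tested factors the median log2 difference was -0.37 in scWAT and -0.18 in BAT, and 9 and 10 of them lay below 0. At an unadjusted limma p under 0.05, 2 factors were higher and 1 lower in scWAT, against 27.6% of all tested probes. In BAT 0 were higher and 2 lower, against 2.12%. Spib, another factor of the lineage, had a log2 difference of -1.13 (SE 0.57, adjusted p = 0.224) in scWAT. In BAT (adjusted p = 1) 0 of 3 Lr11 -/- arrays were above background, and with those arrays raised to the floor it was 1.68-fold lower. Pou2af1 lies on chromosome 9, as Sorl1 does, whereas Ms4a1 lies on 19, Cd79a on 7, Cd79b on 11 and Fcmr on 1. The scWAT call of Pou2af1 was lost when Lr11 -/- scWAT replicate 2 or 3, WT scWAT replicate 2, any WT BAT array or Lr11 -/- BAT replicate 2 or 3 was left out, with adjusted p up to 0.155, and it held without the 5 muscle arrays (0.0299).

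Of 20 genes that carry the B cell receptor signal, many of which other leucocytes also use, 19 were tested. In scWAT 1 passed, against 5.27% of all tested probes. Dapp1, an adaptor phosphorylated after receptor engagement, fell by 1.70 on the log2 scale (SE 0.40, adjusted p = 0.0439), from -0.79, 0.12 and -1.25 in WT to -1.81, -2.40 and -2.81 in Lr11 -/- mice. This list's median log2 difference was -1.19 in scWAT and -0.20 in BAT, and its mean on WT scWAT replicate 2, the array highest in leucocyte genes, was the highest of all (1.85). Without that array the Dapp1 difference was -1.32 (adjusted p = 0.115), and the call was also lost without Lr11 -/- scWAT replicate 2 or 3 or any 1 of the 6 BAT arrays, with adjusted p up to 0.187. In WT mice 7 of these 19 genes passed as lower in BAT than in scWAT, where 9.13% of all tested probes did, among them the kinases Syk (log2 difference -2.54, adjusted p = 0.0178) and Prkcb (-2.54, adjusted p = 0.0188) and the inhibitory receptor Fcgr2b (-2.52, adjusted p = 0.0119). Of 9 plasma cell genes 8 were tested and 0 passed between genotypes, and of 6 germinal centre genes 2 were tested and 0 passed.

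The other cell types that these samples can hold were read from their own lists. Of 20 T lymphocyte genes 17 were tested and 0 passed between genotypes in either depot (2 had an unadjusted p under 0.05 in scWAT and 0 in BAT). Their median log2 difference was 0.12 in scWAT and -0.38 in BAT. Cd3e, a chain of the T cell receptor complex, was between 0.69 and 1.09 in WT scWAT and between 0.76 and 1.47 in Lr11 -/- scWAT. The 8 genes of all leucocytes were tested and 0 passed. Their median log2 difference was -1.11 in scWAT and -0.34 in BAT, and the mean of the list ranged from 0.27 to 3.42 in WT scWAT and from 0.10 to 0.72 in Lr11 -/- scWAT. Ptprc, which encodes CD45, was at -0.29, 1.61 and -1.66 in WT scWAT, where Ms4a1 was at -2.42, -2.23 and -1.70. Ptprc was chosen after its values were seen, and WT scWAT replicate 3 is an array with muscle RNA. The part of leucocyte content in the Ms4a1 values was not tested. Without WT scWAT replicate 2 the Ms4a1 difference was -2.12.

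Lymph node stroma was examined because the inguinal pad holds a lymph node. Of 13 such genes on the array 9 were tested, and 1, Mfge8, a secreted bridging protein that follicular dendritic cells and other cells make, fell in scWAT by 1.99 on the log2 scale (SE 0.42, adjusted p = 0.0393). It was at 8.01, 8.61 and 6.99 in WT scWAT against 6.36, 5.88 and 5.39 in Lr11 -/- scWAT. The median of the list was -0.67 in scWAT and 0.01 in BAT. Its mean ranged from -1.64 to -0.29 in WT scWAT and from -2.58 to -1.70 in Lr11 -/- scWAT, and the part of lymph node tissue in the B lymphocyte values was not tested. Of 7 natural killer cell genes 4 were tested, and Nkg7, a granule membrane protein of killer cells, rose in scWAT by 0.89 (SE 0.21, adjusted p = 0.0436). Over all tested probes 5.27% passed in scWAT. The Mfge8 and Nkg7 calls were lost when any 1 of the 6 BAT arrays, Lr11 -/- scWAT replicate 2 or 3, or WT scWAT replicate 2 was left out, with adjusted p up to 0.172 and 0.171. Of 13 macrophage and dendritic cell genes 11 were tested and 0 passed, and so for the red blood cell (5 tested), skeletal muscle (5), epithelium (3) and adipocyte (7) lists. The adipocyte list had a median log2 difference of 1.48 in scWAT. Of its genes 4 of 7 had an unadjusted limma p under 0.05, against 27.6% of all tested probes, and 1 was higher without overlap. The list mean was 6.77, 3.04 and 5.30 in WT scWAT, lowest on replicate 2, and between 5.67 and 6.63 in Lr11 -/- scWAT, so the genotypes overlapped. Of 7 brown adipocyte genes 4 rose in Lr11 -/- scWAT, among them Ucp1 (log2 difference 10.14, SE 1.92), Cidea (8.70, SE 1.92) and Cox7a1 (5.70, SE 1.19), the median of the list was 6.17, and its part in the B lymphocyte values was not tested. These calls were lost without any 1 of the same 9 arrays as for Mfge8 (adjusted p up to 0.174) and with all probes kept (up to 0.0761).

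**Figure D4:**
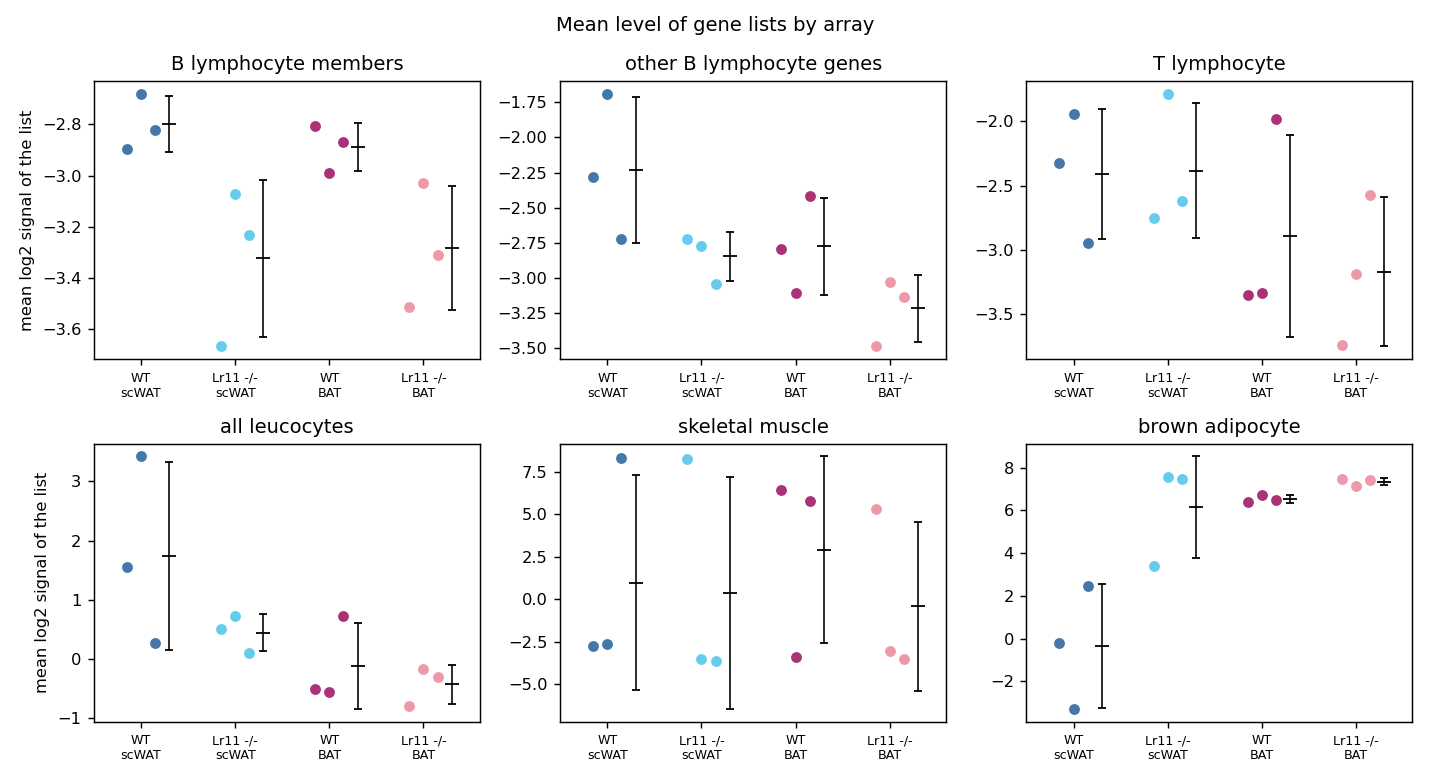
Mean log2 signal minus the 75th percentile (y axis) over the genes of 6 lists on each array by group (x axis), with the mean ± SD of the 3 arrays in black. The 8 B lymphocyte genes, the untested Cd79a, Pax5 and Blk included, lie between -2.90 and -2.68 in WT scWAT. In Lr11 -/- scWAT they lie between -3.67 and -3.07, whereas the T lymphocyte list overlaps. Skeletal muscle genes are high on 5 arrays spread over the 4 groups.

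Averaged over the 8 members, the dim and untested Cd79a, Pax5 and Blk included, the level per array was -2.90 to -2.68 in WT scWAT. It was between -3.67 and -3.07 in Lr11 -/- scWAT. In BAT it was between -2.99 and -2.81 in WT and between -3.51 and -3.03 in Lr11 -/- mice. The genes most like this mean over the 12 arrays were Gm16523, Olfr1198, Ccl17, Mrtfb, Ccr6, Myo1d, Spdl1, 6720489N17Rik, Tcf4 and Dip2b, with Pearson r from 0.844 to 0.896. Ccl17 is a chemokine, and Ccr6 a chemokine receptor that B lymphocytes and some T lymphocytes carry. Against the mean of Ms4a1 and Cd79b, a profile chosen after the values were seen, the highest r was that of Zbtb25 (0.933), and Pou2af1 was the sixth (0.900).

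Promoter sequence is shown for Cd79a, the only member with a promoter entry whose Lr11 -/- scWAT arrays all lay below WT, and for Fcmr and Pou2af1, which passed there. The sequences are RefSeq's on GRCm38.p6, from 250 bases before to 50 bases after the transcription start. Entries were found for 5 of the 8 members (7 promoters), and Ms4a1, Cd79b and Blk had none. Searched on both strands were the octamer ATTTGCAT, CCCNNGGG as an EBF1-type site, GAGGAA as a PU.1-type site and the E-box CAGGTG, none of which holds the letters of another, and matches are in capitals, as they read on the strand shown. Cd79a lies at chr7:24897247-24897546 (+ strand), Fcmr at chr1:130865527-130865826 (+ strand) and Pou2af1 at chr9:51213440-51213739 (+ strand).
Cd79a: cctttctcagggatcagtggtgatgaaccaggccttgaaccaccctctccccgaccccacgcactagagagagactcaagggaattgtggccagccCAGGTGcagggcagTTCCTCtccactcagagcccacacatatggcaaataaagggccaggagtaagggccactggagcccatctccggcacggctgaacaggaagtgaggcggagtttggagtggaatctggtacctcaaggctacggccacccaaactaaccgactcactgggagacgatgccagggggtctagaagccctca
Fcmr: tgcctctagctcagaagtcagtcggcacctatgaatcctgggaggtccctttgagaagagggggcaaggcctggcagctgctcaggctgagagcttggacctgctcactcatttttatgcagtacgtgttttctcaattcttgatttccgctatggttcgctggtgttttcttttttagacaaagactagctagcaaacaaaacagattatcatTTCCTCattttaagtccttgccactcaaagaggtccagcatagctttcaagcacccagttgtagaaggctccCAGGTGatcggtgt
Pou2af1: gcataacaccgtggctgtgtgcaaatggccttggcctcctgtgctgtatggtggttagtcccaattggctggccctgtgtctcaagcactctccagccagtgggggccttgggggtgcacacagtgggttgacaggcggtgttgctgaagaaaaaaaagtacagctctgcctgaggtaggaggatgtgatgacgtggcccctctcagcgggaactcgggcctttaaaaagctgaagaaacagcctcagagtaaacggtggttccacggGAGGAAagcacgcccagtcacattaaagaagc

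Cd79a held 1 E-box, at -154 counted from the start, and 1 PU.1-type match, at -140. Fcmr held 1 PU.1-type match at -36 and 1 E-box at 37, and Pou2af1 held 1 PU.1-type match at 19. Among the 7 promoters of the members 4 held the E-box, 1 the PU.1-type and 1 the EBF1-type letters, and 0 the octamer. The shares of all 32851 promoters listed that held them were 20.2%, 28.3%, 13.7% and 1.74%, in the same order. These are matches of letters and say nothing of binding.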

How the data were processed

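Total RNA of ground frozen scWAT and BAT was labelled with Cy3 and hybridised to 12 single-colour Agilent mouse arrays. The authors deposited scanner output of Agilent Feature Extraction (10.10.1.1 in the file headers), in which the intensity of each spot is background-subtracted (processed signal) and not scaled between arrays. The deposited table of the series held the same values. The 75th percentile of the intensity was between 374 and 632, and the spots well above background numbered 32377 to 37002.

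Control spots were dropped, as were the 128 to 181 outlier spots of each array, spots of a probe were averaged, and log2 signal minus the array's 75th percentile was used. Of 55681 probes 28685 had a RefSeq accession, and 27235 were named through a RefSeq gene table, giving 20660 genes. The array design names an older build than GRCm38.p6, so only names and chromosomes were taken from that table. A gene was read from its probe with the highest mean. The 32121 probes well above background on all 3 arrays of a group were fitted in limma 3.58.1 (R 4.3.3) with 1 mean per group over all 12 arrays, and p-values were adjusted by Benjamini-Hochberg over all of them (threshold 0.05). For single genes an exact permutation test (two-sided) was run. The fit was tested on simulated data.

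The members and gene lists were chosen with earlier results of these data known. Genes named are the members, Sorl1, from each other list up to 3 genes past the threshold, else up to 3 with the highest mean, and the 10 genes most like the members. Cxcr5, Spib, Cd3e and Ptprc were chosen after their values were seen, as was the mean of both depots. The alternatives were other scalings and background correction, no filter or a stricter one, outlier spots kept, averaged probes, array series (2) or slide (3) as a block, each series alone, array weights, another variance model, only the groups compared, and leaving out each array or the 5 with muscle RNA.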

Additional observations from a re-analysis of the deposited data

How the results depend on the processing

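No member passed the threshold in the interaction, in BAT or between depots under any alternative that was run. In scWAT the count of members called was 1, Ms4a1, after normexp, with the array series as a block, with the slide as a block and in the second array series alone, and it ranged from 0 to 1 with 1 array left out at a time. For the mean of both depots it was 1, Ms4a1, in the second array series alone, where 2255 of all tested probes passed. With 1 array left out it ranged from 0 to 2. Under the other alternatives these counts stayed at 0, apart from the fit without the 5 arrays with muscle RNA. That fit left 1 WT BAT array, and its scWAT count is not given. With 1 array left out, the scWAT count over all tested probes ranged from 3 to 6371, against 1692 in the main fit. For the mean of both depots it ranged from 8 to 3528, against 39. Normexp and the removal of the muscle arrays were chosen after seeing the data. Of the other genes called in scWAT, Fcmr, Pou2af1, Dapp1, Mfge8 and Nkg7 lost the limma call with no filter (adjusted p from 0.0585 to 0.0867) and with only the groups compared in the fit (0.315), Fcmr also after normexp (0.0615), Dapp1 with the series or the slide as a block (0.0522 and 0.0648), and Nkg7 after every other scaling, after normexp and without the muscle arrays (0.0524 to 0.223). Direction changed only in differences that had not passed the threshold, whose log2 values follow. After quantile normalization, the genotype difference in scWAT was 0.0928 for Fcer2a and the mean genotype difference was 0.0172 for Fcer2a. After median scaling, the genotype difference in scWAT was 0.0966 for Fcer2a, the depot difference in Lr11 -/- was 0.0422 for Cd22, the mean genotype difference was 0.0187 for Fcer2a. After normexp (median signals, offset 50), the genotype difference in scWAT was 0.0134 for Cr2, the genotype difference in BAT was 0.0115 for Fcer2a, the interaction was -0.02 for Fcer2a, the mean genotype difference was 0.0015 for Fcer2a. In the second array series alone, the genotype difference in scWAT was 0.111 for Cr2 and 0.0875 for Fcer2a and 0.05 for Cd22, the genotype difference in BAT was 0.0396 for Fcer2a, the interaction was 0.0966 for Cd22, the depot difference in Lr11 -/- was 0.1408 for Ms4a1, the mean genotype difference was 0.0636 for Fcer2a and 0.0016 for Cd22. With array weights, the genotype difference in scWAT was 0.1875 for Cr2 and 0.0576 for Fcer2a, the interaction was 9e-04 for Cd22. Without the 5 arrays with muscle RNA, the genotype difference in scWAT was 0.0257 for Cr2, the genotype difference in BAT was 0.0635 for Fcer2a and 0.081 for Cd22 and 0.4317 for Dapp1, the interaction was -0.1223 for Fcer2a, the depot difference in WT was -0.0795 for Cr2, the depot difference in Lr11 -/- was 0.1408 for Ms4a1, the mean genotype difference was 0.0024 for Fcer2a and 0.0237 for Cd22. Without scaling, the interaction was -0.1084 for Cr2 and -0.1078 for Fcer2a, the depot difference in WT was -0.3157 for Cr2 and -4e-04 for Fcer2a. With the slide as a block, the depot difference in WT was -0.0819 for Cr2. With all tested probes of a gene averaged, the depot difference in Lr11 -/- was 0.028 for Cr2. With 1 array left out at a time, the genotype difference in scWAT ranged from -0.127 to 0.068 for Fcer2a and from -0.381 to 0.2153 for Cr2 and from -0.5034 to 0.1017 for Cd22. Likewise the genotype difference in BAT ranged from -0.1724 to 0.0316 for Fcer2a. Likewise the interaction ranged from -0.153 to 0.4432 for Cr2 and from -0.4234 to 0.1817 for Cd22 and from -0.0448 to 0.1645 for Fcer2a and from -1.0538 to 0.2356 for Ms4a1 and from -0.5385 to 0.1257 for Cd79b. Likewise the depot difference in WT ranged from -0.1879 to 0.2956 for Cr2 and from -0.2939 to 0.0283 for Cd22. Likewise the depot difference in Lr11 -/- ranged from -0.4415 to 0.1547 for Cr2 and from -0.3404 to 0.2647 for Cd22 and from -0.9922 to 0.2972 for Ms4a1. Likewise the mean genotype difference ranged from -0.2917 to 0.0108 for Cd22 and from -0.1117 to 0.0092 for Fcer2a. For each of these the cause was not tested. Dim probes limit what can be said: the lowest signal called well above background was between -5.13 and -4.28 on these arrays, and 3 arrays a group limit the precision. Asking for a signal above background on all 12 arrays left Ms4a1 out. Normexp on mean signals was not run, since the mean signal column was not among those analysed here, and neither was the interaction or the mean of both depots from the compared groups alone. No paired analysis was possible because the labels number no replicates and do not tie samples to mice (the replicate numbers used here follow accession order and only name the arrays).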
